A study of Mus musculus with 6 samples.

Results

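The 9 genes described here move, store, reduce and recover cellular iron. *Fth1* and *Ftl1* encode the heavy and light chains of ferritin, *Tfrc* the transferrin receptor, *Slc11a2* and *Slc11a1* the metal transporters DMT1 and NRAMP1, *Slc40a1* the iron exporter ferroportin, *Steap2* and *Steap3* metalloreductases, and *Hmox1* the inducible haem oxygenase. They were picked by symbol, 9 of the 53746 genes in the count table, and all 9 were among the 16961 genes with enough counts to be tested. *Slc11a1* was among them only through its counts in Pcp2-cre mice (below). Because they were picked with results of the same genotype comparison known, their genotype differences are described with intervals and printed without p-values. Where they are sorted below by an adjusted p threshold, that too is description.

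RNA was sequenced from the cerebella of 6 mice, 3 of each genotype, at 2 months of age, to ask how the tissue changes when STING is switched on in Purkinje cells. Both groups carry 2 *N153S*LSL alleles, in which a LoxP-Stop-LoxP cassette holds back a knockin of *Sting1* N153S, a form of the innate immune adaptor STING that signals without its ligand. The N153SLSL/LSLPcp2-cre mice (Pcp2-cre mice) also carry the *Pcp2-cre* transgene, which drives Cre in Purkinje cells, whereas the N153SLSL/LSL mice (control mice) carry no Cre. Mice 1 and 2 of each group were male and mouse 3 was female. No group carried *Pcp2-cre* without the knockin, so the knockin and the transgene cannot be told apart. Each library held a whole cerebellum, and in such bulk RNA fewer cells of a type and less RNA per cell cannot be told apart.

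Total counts ran from 6733178 to 10178218 per mouse, and 3 counts, used as the limit of detection, equalled 0.297 to 0.447 CPM. CPM is the count scaled to the size of the library, and this limit covers counting error only. The mitochondrial share was 2.37% to 2.66%. The labelled tissue was checked against markers: the 8 Purkinje cell markers summed to between 3565 and 7055 CPM and the 6 granule cell markers to between 3753 and 4012 CPM. As a check of the labels, *Sting1* averaged 25.5 CPM (SD 2.09, n = 3) in control mice and 38.0 CPM (SD 5.55, n = 3) in Pcp2-cre mice. From public single-cell data, the authors report *Sting1* mRNA in microglia and little or none in Purkinje cells. By staining, which they call more reliable, they found STING protein in wild-type Purkinje cells. In younger Pcp2-cre mice they found more of this protein in Purkinje cells and no increase in microglia. Microglia markers were also higher in the Pcp2-cre mice sequenced here (below), so the mRNA check cannot tell the knockin from microglial *Sting1*. Control mice 1 and 2 stood apart in 8 choroid plexus markers, which summed to 808 and 1248 CPM there, 34.7 CPM in control mouse 3 and 25.3 to 90.1 CPM in Pcp2-cre mice. Values against control mouse 3 alone are also given where they lose a call or a threshold, or move by much.

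Iron reaches most cells as ferric iron on transferrin, which the transferrin receptor carries into endosomes. There a reductase of the Steap family turns it into ferrous iron, and DMT1 passes it to the cytosol. Iron that is not used is kept in ferritin, a hollow shell of heavy chains, which oxidise the metal, and light chains, which help it to mineralise, while ferroportin returns it to the outside. NRAMP1 pumps metal out of the phagosomes of macrophages, and haem oxygenase frees iron from haem. In the brain, oligodendrocytes and microglia are known for their ferritin.

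Several of these mRNAs carry an iron-responsive element, a hairpin that iron regulatory proteins bind when iron is scarce. In the 5′ UTR it holds back translation, and in the 3′ UTR it protects the mRNA from decay. The hairpins were searched for in the UTRs of the coding transcripts of Gencode M39 on GRCm39, on the sense strand, as a C, then 5 bases, then CAGTG followed by A, C or T, then 5 bases that pair with the first 5 (G-T pairs allowed). Of the 9 genes 4 held a match, 7 hairpins in all, and the same search matched 160 of 21594 coding genes (0.741%). The hairpins are shown because the ferritin genes, *Tfrc* and *Slc40a1* each held a match to this pattern, which played no part in picking the genes. Capitals mark the loop, and each sequence runs 5′ to 3′ along the mRNA in DNA letters.

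*Fth1*, 5′ UTR: tcctgcttcaaCAGTGCttgaacggaaccc
*Ftl1*, 5′ UTR: tcttgcttcaaCAGTGTttgaacggaacag
*Slc40a1*, 5′ UTR: aacttcagctaCAGTGTtagctaagtttgg
*Tfrc*, 3′ UTR, element 1: attatcggaagCAGTGCcttccataattat
*Tfrc*, 3′ UTR, element 2: attatcgggagCAGTGTcttccataatgca
*Tfrc*, 3′ UTR, element 3: tatatcggagaCAGTGAtctccatatgtta
*Tfrc*, 3′ UTR, element 4: attatcgggaaCAGTGTttcccataatttt

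The *Fth1* hairpin lay at chr19:9960097-9960126 on the forward strand in 17 of 18 coding transcripts. The *Ftl1* hairpin lay at chr7:45109201-45109230 on the reverse strand in 6 of 7, and that of *Slc40a1* at chr1:45964623-45964652 on the reverse strand in 5 of 9. The hairpins of *Tfrc* lay on the forward strand at chr16:32450038-32450067, chr16:32450417-32450446, chr16:32450482-32450511 and chr16:32450529-32450558, each in 10 of 12 coding transcripts. The letters of this pattern were not found in the UTRs of *Steap2*, *Steap3*, *Hmox1*, *Slc11a1* or *Slc11a2*. The search took only 5 unbroken pairs and this loop, so it misses hairpins with a mismatch or bulge in that stem. A gene without a match may therefore still carry an iron-responsive element.

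Levels of different genes were set side by side as the deposited FPKM, which scales fragments to exon length and library size. In control cerebella ferritin stood far above the rest, with 556 ± 19.5 FPKM (SD, n = 3) for *Fth1* and 132 ± 3.88 FPKM for *Ftl1*. *Tfrc* followed at 20.9 ± 1.58 FPKM, *Steap2* at 16.9 ± 2.51 FPKM and *Slc11a2* at 14.5 ± 0.366 FPKM. *Slc40a1* at 1.54 ± 0.152 FPKM and *Hmox1* at 1.53 ± 0.198 FPKM lay well below *Slc11a2*. *Steap3* had 0.530 ± 0.193 FPKM and *Slc11a1* 0.436 ± 0.0134 FPKM, the lowest of the 9. Among neighbours in this order, the mice overlapped between *Steap2* and *Slc11a2*, between *Slc40a1* and *Hmox1*, and between *Steap3* and *Slc11a1*, and these pairs cannot be ranked.

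In Pcp2-cre cerebella the order differed at the middle and at the low end. *Slc11a2*, at 13.6 to 15.1 FPKM, lay above *Steap2*, at 9.68 to 13.3 FPKM, in every Pcp2-cre mouse. *Slc11a1* reached 1.58 to 2.11 FPKM, which overlapped *Slc40a1* at 1.77 to 2.20 FPKM and lay above *Steap3* at 0.547 to 0.972 FPKM. *Fth1* (650 ± 17.9 FPKM, n = 3) and *Ftl1* (165 ± 1.24 FPKM, n = 3) kept their places at the top.

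**Figure D1:**
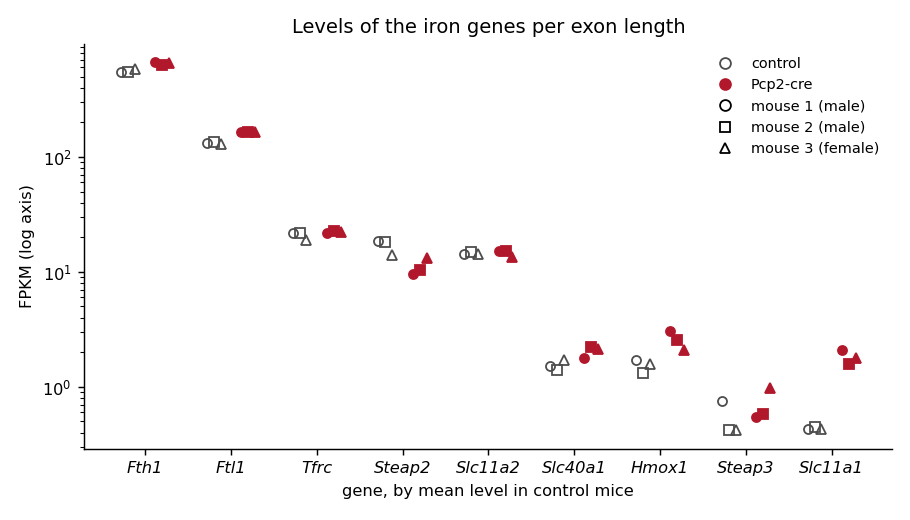
Deposited FPKM (log axis) of the 9 iron genes in each cerebellum, ordered by the mean of the 3 control mice, with open symbols for control and filled symbols for Pcp2-cre mice. *Fth1* and *Ftl1* sit above 100 FPKM in every mouse, and *Slc11a1* moves from 0.426 to 0.451 FPKM in controls to 1.58 to 2.11 FPKM in Pcp2-cre mice.

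The genotypes were compared on the counts with edgeR's quasi-likelihood test over all genes tested. A gene was called where its p, adjusted over all genes by Benjamini and Hochberg's method, was at most 0.05 and its log2 fold change was 0.5 or more in size. *Slc11a1* and *Hmox1* were past both thresholds upward and *Steap2* downward, 3 of 9 genes, where 3.17% of all genes tested were called (1.37% higher, 1.79% lower). The ferritin genes *Fth1* and *Ftl1* were past the adjusted p threshold at a smaller fold change, as were 7.74% of all genes at any fold change (2.99% higher, 4.75% lower). The CPM of the 2 groups did not overlap for 6 of the 9 genes, 5 with every Pcp2-cre mouse above and 1 with every Pcp2-cre mouse below the controls. Of all genes 22.2% did not overlap, 10.8% above and 11.4% below. These counts follow from how the genes were picked, and nothing is read from them. The median log2 fold change was 0.34 over the 9 genes and 0.0045 over all genes tested.

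**Figure D2:**
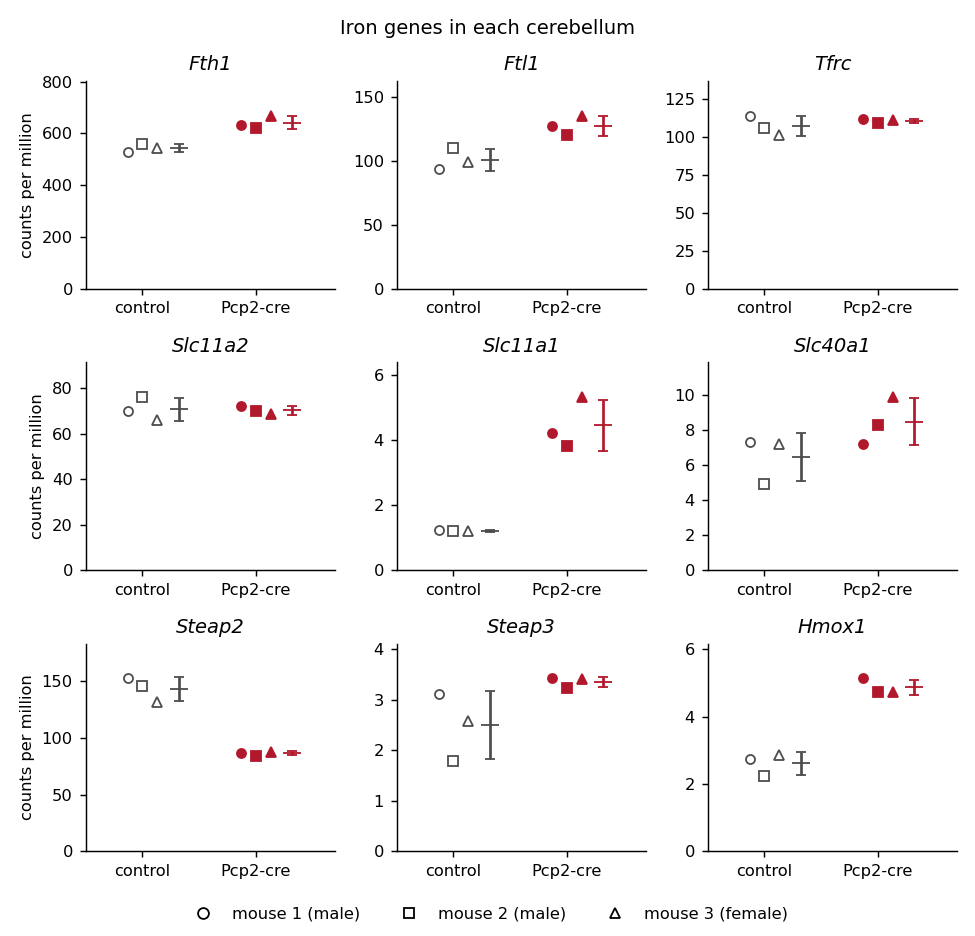
CPM of each iron gene in each of the 6 cerebella on axes that start at 0, with circles and squares for males and triangles for females. The bar beside each group is the mean ± SD (n = 3), and *Steap2* is the gene whose Pcp2-cre mice all lie below the controls.

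Both ferritin chains were higher in Pcp2-cre cerebella by a similar, small amount. *Fth1* (ENSMUSG00000024661, chr19:9957911-9962462, forward strand) had 530.3, 559.7 and 543 CPM in control mice 1, 2 and 3 and 634, 619.8 and 669 CPM in Pcp2-cre mice 1, 2 and 3. Every Pcp2-cre mouse lay above every control, and the log2 fold change was 0.24 (standard error 0.0391, 95% interval 0.15 to 0.32), 17.8% of the control mean. *Ftl1* (ENSMUSG00000050708, chr7:45107367-45109308, reverse strand) had 93.8, 110.5 and 99.3 CPM in controls and 127, 120.2 and 136 CPM in Pcp2-cre mice. The groups were again apart, and the difference was 0.34 on the log2 scale (standard error 0.0549, 95% interval 0.22 to 0.45). In FPKM both chains were also higher in every Pcp2-cre mouse, but *Fth1* did not pass the adjusted p threshold there, with a log2 fold change of 0.23 after 1 FPKM was added, whereas *Ftl1*, at 0.32, did.

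The balance of the chains was nearly the same in both genotypes. The counts of *Fth1* were 5.40 ± 0.300 (SD, n = 3) times those of *Ftl1* in control and 5.02 ± 0.121 times in Pcp2-cre mice. The ranges, 5.07 to 5.65 and 4.93 to 5.16, overlapped. Per length, in FPKM, the ratio was 4.21 ± 0.269 in control and 3.94 ± 0.0989 in Pcp2-cre mice. As counted, the mRNA for the heavy chain was thus several times that for the light chain on both scales. The counts of *Gm10252*, which overlaps *Ftl1* (below), were not added to those of *Ftl1*. If they came from *Ftl1*, the count ratio would be lower. *Fth1* also overlaps a gene model (below), and adding any reads lost there would raise the ratio.

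Ferritin genes have processed copies elsewhere in the genome that can take reads from them. The copy with the most counts was *Ftl1-ps1*, with 17, 18 and 31 counts in controls and 31, 28 and 25 in Pcp2-cre mice, beside 742 to 1041 counts for *Ftl1* itself. The copies *Fth1-ps*, *Fth-ps2* and *Fth-ps3* held at most 8 counts in any mouse. With the counts of the copies added, the log2 fold changes stayed at 0.24 for *Fth1* and 0.34 for *Ftl1*. *Fth1* shares 1462 bases of exon with *Gm36913*, a lncRNA model on the opposite strand that had 0 counts in every mouse. Whether *Fth1* lost reads to this overlap is not known. More counts than on the copies fell on *Gm10252*, a gene model on the opposite strand that shares 355 bases of exon with *Ftl1*. *Gm10252* had 463 to 664 counts and differed by 0.26 on the log2 scale (standard error 0.0545), and since the use of strand in counting is not given, its reads and those of *Ftl1* cannot be told apart.

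Markers of oligodendrocytes and microglia were higher in the same mice, and those of astrocytes and Bergmann glia went both ways. The 7 oligodendrocyte markers summed to 3638 to 3867 CPM in controls and 4267 to 4478 CPM in Pcp2-cre mice, with a median log2 fold change of 0.20. Of these markers 5 were higher past the adjusted p threshold, and none was called at the fold-change threshold. The 10 microglia and macrophage markers summed to 123 to 127 CPM in controls and 335 to 376 CPM in Pcp2-cre mice, and 8 of them were called higher. The 7 astrocyte and Bergmann glia markers summed to 2587 to 2623 CPM in controls and 2899 to 2980 CPM in Pcp2-cre mice, with a median log2 fold change of 0.08. Of these, *Gfap* (1.94) and *Aqp4* (0.51) were called higher, and *Slc1a3* (-0.22) and *Gdf10* (-0.25) were lower past the adjusted p threshold. None of these markers was at 0 in all mice. Their part in the ferritin values was not tested.

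The genes for the entry of transferrin-bound iron overlapped between genotypes in CPM. *Tfrc* (ENSMUSG00000022797, chr16:32427556-32451612, forward strand) had 114, 106 and 101 CPM in controls and 112, 109 and 111 CPM in Pcp2-cre mice. The Pcp2-cre values lay within the control range, and the log2 fold change was 0.05 (standard error 0.0472, 95% interval -0.05 to 0.15), or 0.13 against control mouse 3 alone. *Slc11a2* (ENSMUSG00000023030, chr15:100285776-100322953, reverse strand) had 70.1, 76.2 and 66.2 CPM in controls and 72.2, 70.1 and 68.6 CPM in Pcp2-cre mice. Here too every Pcp2-cre mouse fell within the range of the controls, and the 95% interval of the log2 fold change was -0.12 to 0.12, with 0.09 as the value against control mouse 3 alone. The intervals leave room for a difference of that size in either gene. In FPKM the Pcp2-cre mice lay above the controls for *Tfrc* by a narrow margin, 21.90 to 22.51 against 19.12 to 21.87 FPKM, and overlapped them for *Slc11a2*.

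*Slc11a1* (ENSMUSG00000026177, chr1:74414303-74425448, forward strand), the NRAMP1 transporter of phagocytes, showed the largest difference of the 9 genes on the fewest counts. Its counts were 10, 8 and 12 in controls, against 32, 33 and 36 in Pcp2-cre mice. Scaled to library size these were 1.25, 1.19 and 1.19 CPM against 4.21, 3.81 and 5.33 CPM, with a wide gap between the groups. On the log2 scale the difference was 1.85 (standard error 0.261, 95% interval 1.31 to 2.40), and 0.454% of all genes tested had a larger one in size. The count filter asks for a minimum in as many mice as a group holds, and only the Pcp2-cre mice brought *Slc11a1* past it. The entry of *Slc11a1* to the test thus rested on the group in which it was high, and its call is description. The counts of its paralog *Slc11a2* were 58.6 ± 4.66 times those of *Slc11a1* in control and 16.1 ± 2.88 times in Pcp2-cre mice (SD, n = 3 each).

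The difference in *Slc11a1* ran beside that of microglia and macrophage markers. Relative to the control mean, *Slc11a1* was higher by 1.80, 1.66 and 2.14 on the log2 scale in Pcp2-cre mice 1, 2 and 3. The summed markers were higher by 1.43, 1.42 and 1.59 in the same mice. Within the list the members spread widely, from *Tyrobp*, an adaptor of myeloid receptors, at a log2 fold change of 2.89, to the homeostatic microglia genes *P2ry12* at 0.28 and *Tmem119* at 0.06, which were not called. Markers of border macrophages summed to 11.9 to 14.6 CPM in controls and 12.6 to 17.4 CPM in Pcp2-cre mice, and none of the 5 that could be tested was called. In the cerebella of older mice, the authors' staining gave no significant difference in microglia number and more activated cells. Macrophages and microglia both express *Slc11a1*, and the part of their number in its level was not tested.

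The exporter overlapped between genotypes in CPM and not in FPKM. *Slc40a1* (ENSMUSG00000025993, chr1:45947211-45965683, reverse strand) had 7.36, 4.91 and 7.23 CPM in controls and 7.24, 8.31 and 9.91 CPM in Pcp2-cre mice. Control mouse 2 was the lowest and Pcp2-cre mouse 3 the highest, and the groups overlapped. The difference was 0.35 on the log2 scale (standard error 0.177), and its 95% interval of -0.01 to 0.72 took in 0. In FPKM all 3 Pcp2-cre mice, at 1.77 to 2.20, lay above the controls, at 1.39 to 1.70. Without control mouse 2 the log2 fold change was 0.21, and against control mouse 3 alone it was 0.22.

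Of the reductases, *Steap2* was lower in Pcp2-cre mice. *Steap2* (ENSMUSG00000015653, chr5:5714829-5744678, reverse strand), which reduces ferric iron and cupric copper, had 152, 145 and 131 CPM in controls and 86.8, 84.4 and 87.7 CPM in Pcp2-cre mice. The lowest control lay well above the highest Pcp2-cre mouse, and the Pcp2-cre mice differed little among themselves. This gave a log2 fold change of -0.73 (standard error 0.0516, 95% interval -0.83 to -0.62), a level 0.603 times the control mean. Against control mouse 3 alone it was -0.61.

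The deposited FPKM of *Steap2* gave a smaller gap. Control mice had 18.5, 18.2 and 14.0 FPKM and Pcp2-cre mice 9.68, 10.5 and 13.3 FPKM. The males of the 2 groups stood far apart, whereas their females, mouse 3 of each, were close together. In this table *Steap2* did not pass the adjusted p threshold, with a log2 fold change of -0.56 after 1 FPKM was added to each value. In Gencode M39, which may not be the release the authors used, *Steap2* shares 2211 bases of exon with *Gm40262*, a lncRNA model on the opposite strand. The deposited counts hold no gene of that symbol. The 2 tables were taken to come from separate programs. Which table is nearer to the transcript level was not tested.

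Purkinje cell markers fell in the same mice. Relative to the control mean, *Steap2* was at -0.72, -0.76 and -0.71 on the log2 scale in Pcp2-cre mice 1, 2 and 3. The summed Purkinje markers were at -0.79, -0.94 and -0.84. All 8 markers were lower past the adjusted p threshold, 5 of them called, and their sum ran from 6485 to 7055 CPM in controls and from 3565 to 3956 CPM in Pcp2-cre mice. *Itpr1*, the calcium release channel of Purkinje cells, had a log2 fold change of -0.98, and *Pcp2* itself had -0.40. None of the markers was at 0 in all mice, and the part of Purkinje cells in the level of *Steap2* was not tested.

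*Steap3* (ENSMUSG00000026389, chr1:120118487-120200435, reverse strand), the endosomal ferrireductase of erythroid cells, had few counts. They were 25, 12 and 26 in controls and 26, 28 and 23 in Pcp2-cre mice, or 3.12, 1.79 and 2.58 CPM against 3.42, 3.23 and 3.40 CPM. The groups were apart in CPM by a small margin and overlapped in FPKM. The log2 fold change was 0.40 (standard error 0.242, 95% interval -0.10 to 0.90), and control mouse 2 set its size, since without that mouse it was 0.24. The counts of *Steap2* were 60.4 ± 18.2 times those of *Steap3* in control and 25.7 ± 0.382 times in Pcp2-cre mice (SD, n = 3 each). Markers of blood, the 5 globin and erythroid genes, ranged from 5.92 to 63.6 CPM in sum over the 6 mice and overlapped between the groups.

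*Hmox1* (ENSMUSG00000005413, chr8:75820241-75827217, forward strand), which opens the haem ring and releases its iron, was higher in Pcp2-cre cerebella on low counts. It had 22, 15 and 29 counts in controls and 39, 41 and 32 counts in Pcp2-cre mice. In CPM these were 2.74, 2.23 and 2.87 against 5.14, 4.73 and 4.73, with no overlap. The log2 fold change was 0.87 (standard error 0.211, 95% interval 0.43 to 1.31), and 1.92% of genes tested had a larger one in size. Its place past the threshold was lost without control mouse 2, where the log2 fold change was 0.79, with the choroid plexus markers as a covariate, where it was 0.75, against control mouse 3 alone, where it was 0.76, and in DESeq2, where it was 0.88. In limma on FPKM *Hmox1* did not pass the adjusted p threshold either. Its log2 fold change there was 0.49 after 1 FPKM was added and 0.70 after 0.1 FPKM was added. The direction held in each of these fits.

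**Figure D3:**
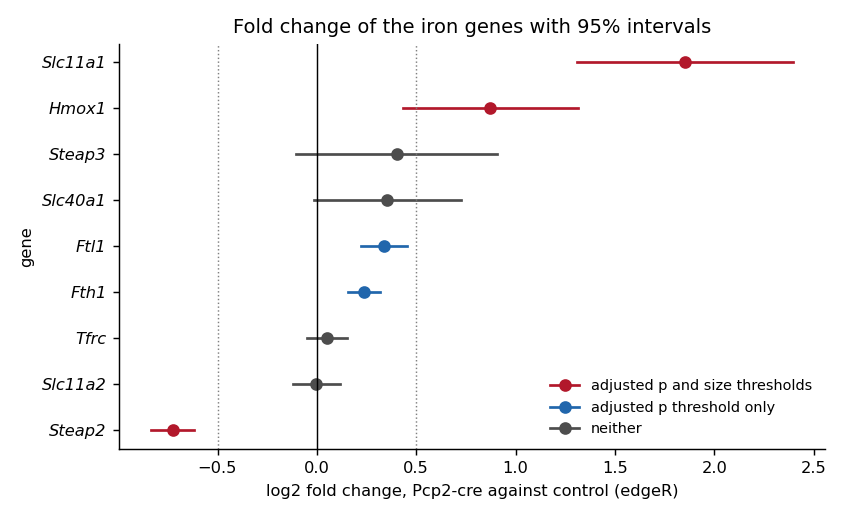
Log2 fold change (Pcp2-cre against control, edgeR, 3 mice per group) of each iron gene as a point with its 95% interval as a line, and dotted lines at -0.5 and 0.5. The intervals of *Slc11a1* and *Hmox1* lie above 0, that of *Steap2* lies below -0.5, and those of *Tfrc*, *Slc11a2*, *Slc40a1* and *Steap3* cross 0.

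*Steap1*, a further reductase of the family, had too few counts to be tested and split the control mice the way the choroid plexus markers did. It had 16 and 20 counts in control mice 1 and 2, 3 counts in control mouse 3 and 3 to 4 counts in Pcp2-cre mice. The part of choroid plexus in its level was not tested.

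**Figure D4:**
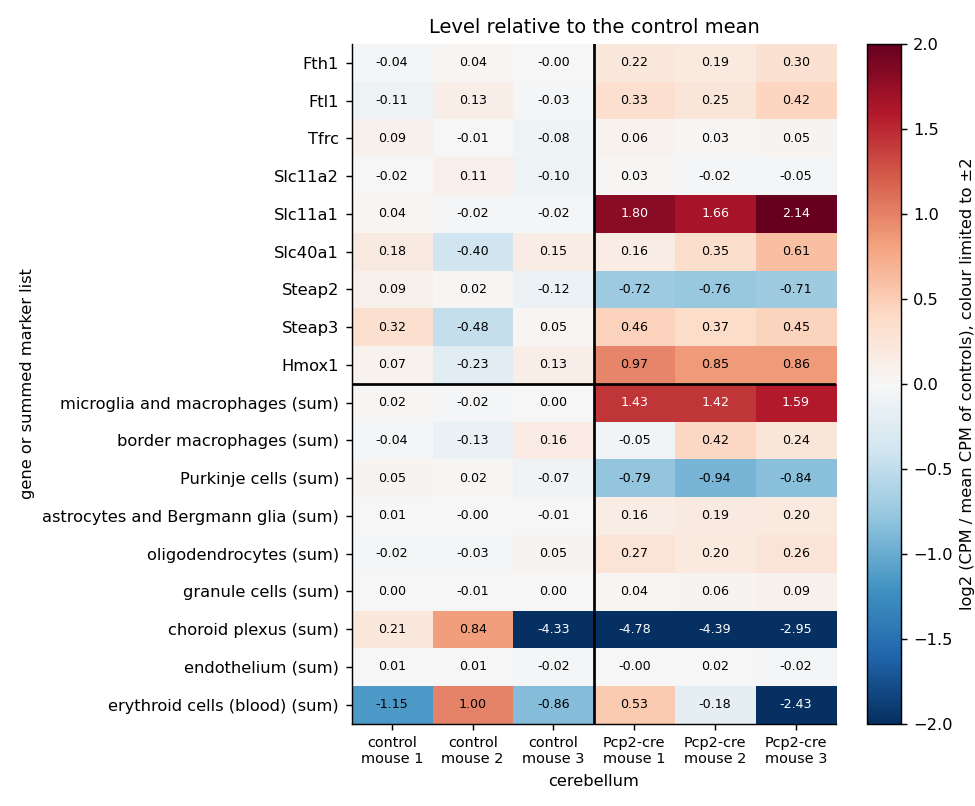
Log2 of the CPM over the mean of the 3 control mice, for the 9 iron genes and for the summed CPM of 9 marker lists, in each cerebellum, with the value printed in each cell and the colour limited at ±2. *Slc11a1* and the microglia sum are above 1.4 in every Pcp2-cre mouse, and *Steap2* and the Purkinje sum are below -0.7.

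Sex, which played no part in picking the genes, was tested in a fit of genotype and sex over 4 males and 2 females. None of the 9 genes differed between the sexes in edgeR's quasi-likelihood test, where 34 genes of all those tested (0.2%) did, and DESeq2 gave the same count of 0. The lowest Benjamini-Hochberg adjusted p was 0.883, for *Steap2*, with a log2 difference, female minus male, of -0.10 (standard error 0.0521). At an unadjusted p under 0.05 the count was also 0. The genotype differences were likewise not found to depend on sex, with an adjusted p of 0.895 or more for the interaction in edgeR, with 1 female per group. In controls, choroid plexus markers summed to 808 and 1248 CPM in the males and 34.7 CPM in the female. Sex and choroid plexus content cannot be told apart there. In Pcp2-cre mice these sums were 25.3 and 33.1 CPM in the males and 90.1 CPM in the female. The change in *Slc11a1* was 1.72 on the log2 scale in males and 2.16 in females, from the mean CPM.

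Of 69 further genes of iron handling, listed by role, 57 could be tested, and edgeR called 0 in either direction, as did DESeq2, beside 3.17% of all genes in edgeR. At an unadjusted p under 0.05 there were 6 of 57, beside 18% of all genes. At an adjusted p of at most 0.05, at any fold change, there were 2 of 57, both higher, beside 7.74% of all genes. With so few genes listed, these counts are not read as a difference from the rest. Of the 57, 52 had a log2 fold change under 0.25 in size, and their median was -0.02. The list was written with earlier results of these data known.

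The first of the 2 was *Trf*, which encodes transferrin, the carrier that *Tfrc* takes up and which oligodendrocytes make in the brain. It had 393, 369 and 394 CPM in controls and 440.0, 425 and 452 CPM in Pcp2-cre mice, so the groups were apart. By edgeR the difference was 0.19 on the log2 scale (standard error 0.0407) and the adjusted p 0.00408. *Trf* did not pass the threshold with the choroid plexus markers as a covariate (0.16, adjusted p = 0.0752), against control mouse 3 alone (0.16, adjusted p = 0.117) or in limma on FPKM (adjusted p = 0.0814 and 0.0775 with the pseudocounts of 1 and 0.1), while leaving out each mouse in turn gave 0.00176 to 0.0443 in edgeR. The other was *Abcg2*, a transporter of the vascular wall that can export haem, with 16.7, 14.3 and 17.4 CPM in controls and 22.5, 21.9 and 23.8 CPM in Pcp2-cre mice. Here the difference was 0.48 (standard error 0.0988) and the adjusted p 0.00267 in the same edgeR fit. *Abcg2* too did not pass with the choroid plexus covariate (0.40, adjusted p = 0.0763), against control mouse 3 alone (0.38, adjusted p = 0.125) or in limma on FPKM (adjusted p = 0.169 and 0.155), while leaving out each mouse gave 0.00173 to 0.0216 in edgeR. The 6 endothelial markers summed to 344 to 353 CPM in both groups but went both ways, with a median log2 fold change of 0.10. Of these, *Slc2a1* (-0.19) was lower past the adjusted p threshold. The others, from *Flt1* (0.06) to *Cldn5* (0.22), were higher and not past it. The part of endothelium in the level of *Abcg2* was not tested.

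By role, among 10 further genes of iron entry and delivery the median log2 fold change was 0.03, with *Trf* the gene past the adjusted p threshold. Ferric reduction (5 tested), storage and release from ferritin (3 tested), export and its control (3 tested) and iron sensing (6 tested) held no gene past that threshold, and their medians ran from -0.14 to 0.01. Among 9 genes of haem uptake, breakdown and export the median was -0.04, with *Abcg2* the gene past the threshold. Haem synthesis (8 tested) and iron-sulphur cluster assembly (13 tested) held none. The mitochondrial ferritin *Ftmt*, the ferroxidase *Hephl1* and the hormone hepcidin, *Hamp*, had 0 counts in every mouse.

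**Figure D5:**
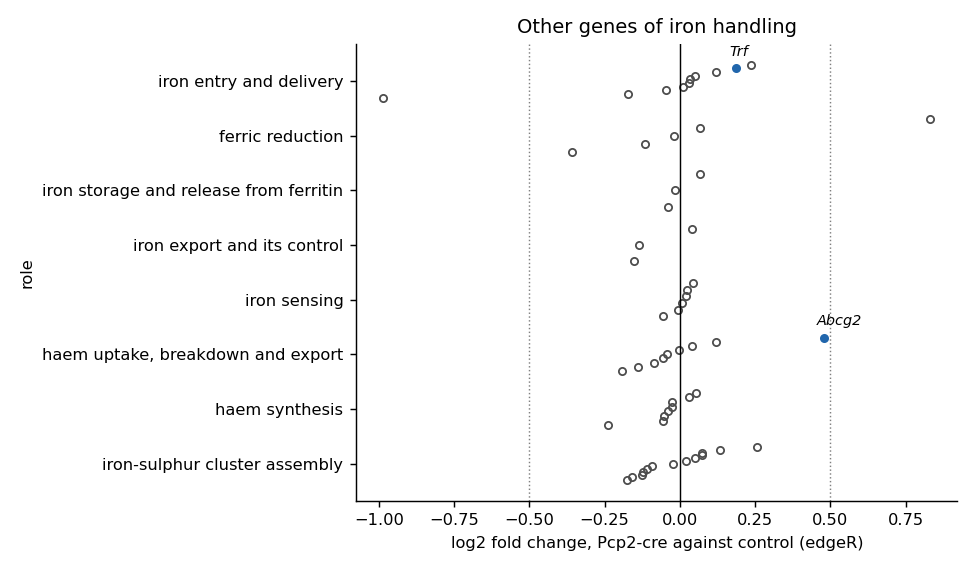
Log2 fold change (Pcp2-cre against control, edgeR) of the 57 tested iron genes other than the 9 described above, by role, with dotted lines at -0.5 and 0.5. Filled points, *Trf* at 0.19 and *Abcg2* at 0.48, are past an adjusted p of 0.05, and 52 of the 57 genes lie within 0.25 of 0.

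Genes whose levels ran most like those of the called iron genes were found by Pearson's r of log2 CPM over the 6 mice among 13776 genes, as a description. All 6 mice enter, so the genotypes themselves carry much of such an r. Nearest to *Steap2* were *Slc1a3*, a glutamate transporter of astrocytes and Bergmann glia (r = 0.999), *Dpp10* (0.998) and *Strip2* (0.998), and 2.69% of genes had an r of at least 0.95. Nearest to *Slc11a1* were *Cebpa*, a transcription factor of myeloid cells (0.998), *Cd83* (0.996) and *Padi2* (0.996), with 1.61% of genes at that level. Nearest to *Hmox1* were *Mvb12a* (0.996), *Rida* (0.995) and *Sall1*, a transcription factor of microglia (0.995), with 1.28%.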

How the data were processed

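Whole cerebellum of 3 control and 3 Pcp2-cre mice, from which poly A RNA was taken, was analysed from 2 deposited tables. The authors used STAR to align trimmed reads to GRCm39 and assigned them to Gencode features with featureCounts and StringTie. Tool versions, the annotation release, strand use and the handling of multimapping reads are not given in the sources used here. The authors deposited raw counts per gene (53746 genes), taken from their whole values to come from featureCounts, and FPKM per gene (55005 genes), without pooling replicates. Nothing says that the mice came from separate litters, so p-values measure the spread between these mice.

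The quasi-likelihood test of edgeR 4.0.16 (R 4.3.3) was run on all counts after its filterByExpr filter and TMM scaling, with Benjamini-Hochberg adjustment over 16961 genes. The standard error is the log2 fold change over the square root of F, and intervals come from the fit's degrees of freedom. A call needed an adjusted p no higher than 0.05 and a log2 fold change no smaller than 0.5 in size. FPKM was tested with limma 3.58.1 after a pseudocount of 1 or 0.1 and log2, a scale that understates the change of low genes. The scripts were tested on simulated counts with 200 changed genes. Replicates differed by more than sampling noise (chi-square per gene 1.38 to 3.62).

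The same mouse numbers deviated together from their group means (correlations 0.189, 0.217 and 0.430 over 11382 genes), so they were treated as pairs in an alternative. Mice 1 and 2, both male, also correlated across numbers (0.174 and 0.251), so the pairing comes from the data and partly follows sex. The 9 genes, the iron and marker lists and the thresholds were chosen with earlier results of these data known. Named genes are the 9, other listed iron genes past the adjusted p threshold, the 3 genes most like each called one (mean of at least 1 CPM), and *Sting1*. Markers, copies, exon neighbours, genes at 0 and *Steap1* were named after their values were seen. Coordinates, hairpins and exon overlaps came from Gencode M39. Alternatives were DESeq2 1.42.0, DESeq2 size factors, no count filter, at least 10 counts in every mouse, the pairs, sex or choroid plexus markers as a covariate, FPKM, other thresholds, and each mouse left out. After seeing the data, sums with ferritin copies and the use of control mouse 3 alone were added. In the latter, the lone control is assumed to vary like the other group.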

Additional observations from a re-analysis of the deposited data

How the results depend on the processing

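Of 293 values compared under an alternative, 253 kept their direction and their call, which needs both thresholds, or their count. Where only a threshold changed, the fold changes were those of the main fit and were not recomputed. Genes not called that lost only the adjusted p threshold also count among the 253. The 9 iron genes held 2 called higher and 1 called lower. The count called higher was 1 in DESeq2, with at least 10 counts in every mouse (*Slc11a1*, with 8 counts in control mouse 2, was left out), with choroid plexus markers as a covariate, in FPKM with either pseudocount, at a log2 threshold of 1 and against control mouse 3 alone, and 4 at any fold change. Except for the count minimum, the gene lost was *Hmox1*. The count called lower was 0 in FPKM with either pseudocount and at a threshold of 1. Leaving out each mouse gave 1 to 2 called higher and 1 called lower, the loss being *Hmox1* without control mouse 2. The log2 fold change ran from -0.79 to -0.68 for *Steap2*, 0.79 to 0.95 for *Hmox1* and 1.71 to 1.96 for *Slc11a1*. *Slc11a2*, near 0, turned positive with the choroid plexus covariate (0.0759), in FPKM with a pseudocount of 1 (0.00607) or 0.1 (0.00636), against control mouse 3 alone (0.0863), and without control mouse 2 or Pcp2-cre mouse 3, where leaving out each mouse gave -0.0550 to 0.0467.

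Among other iron genes, 0 called in either direction became 1 lower (*Steap1*) with no count filter and 2 higher (*Trf*, *Abcg2*) at any fold change. Leaving out each mouse gave 0 to 1 higher and 0 to 3 lower: without control mouse 3, *Steap1* (-2.45), *Scara5* (-1.41) and *Cyb561* (-0.50) were lower and *Abcg2* (0.54) higher, and without Pcp2-cre mouse 2 *Abcg2* (0.51) was higher. *Trf* and *Abcg2* did not pass the adjusted p threshold with the choroid plexus covariate, against control mouse 3 alone or in FPKM, nor did *Fth1* in FPKM. The cause was not tested. With the replicate block that pairs mice by number, the counts stayed at 2 higher and 1 lower (*Steap2* -0.73, *Hmox1* 0.88, *Slc11a1* 1.88), and no call changed. In sex, 0 of the 9 differed under every alternative run. The *Fth1* to *Ftl1* ratio in controls was 4.21 in FPKM and 5.40 in counts. DESeq2 size factors moved the median of all genes from 0.0045 to 0.0027. Depth limits *Slc11a1*, *Hmox1* and *Steap3*, with 8 to 41 counts per mouse.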
